A study of Rattus norvegicus with 6 samples.

Results

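The taste and vomeronasal receptor genes were taken as all non-control probes whose gene name begins with Tas1r, Tas2r, Vom1r, Vom2r, V1r or V2r. The rule found 230 of the 30367 non-control probes, which carry 200 gene names. They comprised 2 Tas1r probes, 33 Tas2r probes for 32 genes, 98 Vom1r probes (V1r names included) for 97 genes and 97 Vom2r probes for 69 genes. RNA from rat heart, labelled as whole heart, was hybridised to 6 single-colour (Cy3) Agilent arrays, 3 per group. The AACO group had received a solution of AACO, a Chinese medicine formula, at 0.386 µg/g each day for 8 weeks, and the control group the same amount of double-distilled water. Animals of both groups had undergone TAC (in this field, transverse aortic constriction, which overloads the left ventricle with pressure) and were killed 24 h after the last dose. Although mice are named in the series text, the samples are labelled Rattus norvegicus, and the probes carry positions on the rat genome build rn4. Strain, sex and age were not given in the sources used here, nor was there a group without the operation.

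Taste receptors of the Tas1r family pair up to sense sweet and umami compounds, and those of the Tas2r family sense bitter ones. In taste cells both act through the G protein gustducin (Gnat3), the phospholipase Plcb2, the calcium release channel Itpr3 and the cation channel Trpm5. Receptors of the Vom1r and Vom2r families sit on neurons of the vomeronasal organ, which detect pheromones and other chemical signals between animals. Vom1r neurons couple through Gnai2 and Vom2r neurons through Gnao1, and both use the channel Trpc2. Transcripts of some taste receptors have been described in the rodent heart, whereas vomeronasal receptors are known mainly from the vomeronasal organ. What single vomeronasal receptors bind is largely unknown, so the members of these families are described below by family.

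All 230 members were measured with probes of 60 bases, and the sequences of those on which the results turn are given 5′ to 3′ as in the array files. The first 8 are the probes that differed between the groups. Capitals mark the stretch that a probe shares with another one printed here.
Tas2r120: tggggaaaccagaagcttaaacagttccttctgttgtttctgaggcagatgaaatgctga
Vom1r32: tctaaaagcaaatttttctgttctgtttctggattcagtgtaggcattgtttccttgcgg
Vom1r53: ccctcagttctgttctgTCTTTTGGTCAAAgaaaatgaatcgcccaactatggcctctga
Vom1r23: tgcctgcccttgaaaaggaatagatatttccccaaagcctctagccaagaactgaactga
Vom1r37: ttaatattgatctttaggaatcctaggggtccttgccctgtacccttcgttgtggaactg
Vom2r35: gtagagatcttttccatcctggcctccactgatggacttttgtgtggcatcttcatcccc
Vom2r56: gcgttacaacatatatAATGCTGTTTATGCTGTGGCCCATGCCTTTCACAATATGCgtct
Vom2r34 (dimmer probe): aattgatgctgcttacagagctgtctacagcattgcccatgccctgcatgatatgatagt
Vom2r34 (brighter probe): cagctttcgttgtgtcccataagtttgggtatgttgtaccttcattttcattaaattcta
V1rd15 (dimmer probe): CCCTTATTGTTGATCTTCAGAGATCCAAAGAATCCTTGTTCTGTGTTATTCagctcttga
V1rd15 (brighter probe): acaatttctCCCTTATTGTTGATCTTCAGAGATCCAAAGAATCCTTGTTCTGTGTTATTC
Vom1r54: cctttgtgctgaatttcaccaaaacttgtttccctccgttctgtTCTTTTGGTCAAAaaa
ENSRNOT00000048720: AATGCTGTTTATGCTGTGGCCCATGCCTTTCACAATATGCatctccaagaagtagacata
The second probe of Vom2r34 is shown because its difference, which did not pass the test, had the opposite sign to the first. The last 4 were added after their values were seen, because they share bases with another probe of the gene or with one that differed. In the array files the probe of Tas2r120 lies at chr4:169981250-169981309 of rn4 on the plus strand. Those of Vom1r32 (chr1:66984193-66984252, plus), Vom1r53 (chr1:72414175-72414230, minus), Vom1r23 (chr1:59830099-59830158, minus) and Vom1r37 (chr1:67386362-67386421, plus) lie on chromosome 1. So do those of Vom2r35 (chr1:73113650-73113709, minus) and Vom2r34, the dimmer at chr1:73087477-73087534 and the brighter at chr1:73083177-73083236 (both minus), while that of Vom2r56 lies at chr7:18205467-18205526 (minus). The listed spans of Vom1r53 and of the dimmer Vom2r34 probe are shorter than the 60 bases of the probe. Which part of a gene these positions fall in was not determined, since no annotation of rn4 was used. Over all members, 109 probes lie on chromosome 1 and 75 on chromosome 4, and 31 of the 33 Tas2r probes are on chromosome 4.

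The quality of the arrays was described in ranges. The 75th percentile of the processed signal was 1693 to 2161 for AACO and 1208 to 1757 for control. The share of all probes well above background, the scanner software's mark for a spot brighter than its surroundings, was 67.7% ± 0.94 on the AACO arrays and 62.8% ± 1.80 on the control arrays (SD, n = 3 each, exact permutation p = 0.1, two-sided, the smallest that 3 against 3 arrays allow). All 7 heart muscle markers (Myh6, Tnnt2, Tnni3, Actc1, Mb, Ryr2 and Pln) were well above background on all 6 arrays. Of 4 atrial markers, Myl7 had log2 levels of 4.83, 6.26 and −1.06 on the AACO arrays, against −2.31, −2.91 and −1.51 on control arrays. Sln had 1.39, 3.85 and −0.41, against −1.71, −0.42 and −0.59. In both, AACO replicates 1 and 2 stood apart. Nppa did not follow, with 2.80, 5.49 and 5.86, against 4.95, 5.25 and 6.99, and Myl4 averaged 6.80 in both groups. None of the 4 passed the test between the groups described below. Each group had a slide and a scan day of its own, so treatment, slide and scan day cannot be told apart in what follows. The small number of arrays limits the precision.

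Most of the receptors gave no signal well above background in these hearts. Of the 230 probes, 164 were well above background on 0 of the 6 arrays, 25 on 1 array and 6 on 2 arrays, while 9 were on 3, 5 on 4, 3 on 5 and 18 on all 6. Detection was rarest among the bitter receptors, where 27 of 33 Tas2r probes were on 0 arrays and none was on more than 3. Among the vomeronasal receptors, 65 of 98 Vom1r and 72 of 97 Vom2r probes were on 0 arrays, and 11 Vom1r and 6 Vom2r probes were on all 6. For comparison, 26.6% of all non-control probes were on 0 arrays and 58.3% on all 6. Of the 1211 probes of the olfactory receptors, named Olr, 75.6% were on 0 arrays and 6.61% on all 6, against 71.3% and 7.83% of the members. For 132 members the scanner software had replaced the signal by a surrogate near the noise on all 6 arrays.

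Per array, 31, 40 and 45 members were well above background in AACO hearts, against 34, 34 and 23 in control hearts. The means of 38.7 ± 7.09 and 30.3 ± 6.35 probes (SD, n = 3 each) overlapped between the groups and did not pass the test (exact permutation p = 0.3, two-sided). Of the 308 negative control spots of each array, 1, 2 and 8 were well above background on the AACO arrays, against 4, 2 and 1 on the control arrays. AACO replicate 3 thus had both the most members and the most negative control spots above background. For Vom1r alone, 18, 22 and 24 probes were well above background in AACO hearts, against 16, 17 and 14 in control hearts, with exact permutation p = 0.1, the smallest possible and the same as for all probes above. Vom2r had 11, 12 and 18 in AACO hearts, against 13, 14 and 8 in control hearts (exact permutation p = 0.6), and Tas2r 1, 4 and 2 against 4, 2 and 0 (exact permutation p = 1).

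The detected members differed from the undetected ones in base composition. The median GC content of the probes was 36.7% for the 164 members on 0 arrays and 45.0% for the 18 on all 6, while it was 38.3% over all members and 45.0% over all non-control probes. Over all probes, those on 0 arrays had a median of 43.3% and those on all 6 arrays 45.0%. The levels below are log2 of the processed signal minus the array's 75th percentile, so that 0 stands for the 75th percentile. A level belongs to its probe, and levels of different probes are not compared as amounts of RNA.

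AACO and control hearts were compared with limma over the 20112 probes detected in this sense on 3 or more arrays, with Benjamini-Hochberg adjustment over all of them and a threshold of 0.05. Of the 35 members tested (33 genes), 4 rose and 4 fell with AACO. Over all probes tested, 6.29% rose and 4.82% fell, 11.1% in either direction. The other 27 tested members had log2 differences between −1.34 and 0.62 and did not pass. Normexp background correction was run with an offset of 50 added to every signal, which shrinks differences of dim probes. With it, 2 members rose and 8 fell, where 4.08% of all probes rose and 8.64% fell. Without scaling, 8 rose and 3 fell, where 31.5% of all probes rose and 1.33% fell. With only probes well above background on all 6 arrays, 2 members rose and 5 fell, where 7.23% of those probes rose and 6.17% fell. The median log2 difference, AACO minus control, was −0.09 over the tested members and 0.04 over all probes. In 5 members every AACO array was above every control array and in 7 every one was below, while 21.5% of all probes tested were above and 15.6% below without overlap, 37.1% in all. Among the 8 that differed, 3 (Tas2r120, Vom1r32 and Vom1r53) entered the test only through the AACO arrays and were well above background on no control array, so that they had to be higher with AACO to be tested at all. In RNA of whole hearts, fewer cells of a type and less RNA per cell cannot be told apart.

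Of the sweet and umami receptors, Tas1r1, the subunit specific to the umami receptor, was detected on all 6 arrays. Its log2 levels were −4.35, −4.65 and −4.26 in AACO hearts, against −4.18, −4.30 and −4.19 in control hearts. The groups overlapped, and the difference of −0.19 ± 0.13 (SE) did not pass (limma adjusted p = 0.349). Tas1r3, the subunit shared by the sweet and the umami receptor, was well above background on 1 array, AACO replicate 2, with a log2 level of −6.43 there. On the other 5 arrays its level lay between −7.47 and −6.78, and it was not tested.

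Among the bitter receptors, Tas2r120 was called higher with AACO. It entered the test only through the AACO arrays, so its direction was set by the filter. Its processed signal was 115, 104 and 67.0 in AACO hearts, against 5.28, 11.6 and 8.30 in control hearts. All 3 AACO arrays lay above the control arrays, on none of which the probe was well above background. The filter let the probe in for this, so the separation is no separate support. On the log2 scale the difference was 3.05 ± 0.47 (SE, limma adjusted p = 0.0164). Set against the lowest level of probes well above background on the control arrays, in place of the probe's own, the fold is at least 2.60. This floor was taken over probes with all spots well above background, a choice made after values were seen, and over probes with a share of at least 0.5 of their spots well above background the bound is 5.28-fold. The probe had 1 spot per array, and on 1 array its signal was a surrogate near the noise. The call was lost without AACO replicate 1 (limma adjusted p = 0.0644), AACO replicate 2 (0.0746) or control replicate 3 (0.0502). It was also lost with normexp background correction, where the difference was 0.57 (0.134). The offset of 50 added there exceeds every control signal of this probe.

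Tas2r116 and Tas2r102, also bitter receptors, were tested and did not pass. Tas2r116 had log2 levels of −7.35, −5.94 and −6.41 in AACO hearts, against −5.44, −4.91 and −5.35 in control hearts, a difference of −1.34 ± 0.36 (SE, limma adjusted p = 0.0636). All AACO arrays were below the control arrays, but the probe was well above background on 1 AACO array and 2 control arrays only. Tas2r102 had log2 levels of −6.89, −7.88 and −6.21 in AACO hearts, against −4.53, −5.19 and −7.49 in control hearts. These overlapped (−1.26 ± 0.81, limma adjusted p = 0.338). Tas2r108 was well above background on 2 arrays, AACO replicate 2 and control replicate 1, with signals of 31.5 and 19.5. Tas2r110 and Tas2r118 were so on 1 array each, and the other 27 Tas2r probes on none.

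Of the Vom1r receptors, 19 probes were tested, 3 rose and 1 fell, where 6.29% of all probes rose and 4.82% fell. Of the 3, Vom1r32 and Vom1r53 entered only through the AACO arrays, and Vom1r23 is the one measured in both groups. Vom1r23, on all 6 arrays, rose. Its processed signal was 227, 393 and 282 in AACO hearts, against 126, 72.2 and 110 in control hearts, and the groups did not overlap. The log2 difference was 1.06 ± 0.18 (SE, limma adjusted p = 0.0205), a fold of 2.09. It was no longer called without AACO replicate 1 (0.0633) or AACO replicate 2 (0.0682). The probe of Vom1r23 lists 2 RefSeq transcripts, so its signal may not come from Vom1r23 alone.

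Vom1r32 and Vom1r53 were dim in both groups. Vom1r32 had processed signals of 24.7, 44.5 and 39.5 in AACO hearts, against 7.46, 7.10 and 7.36 in control hearts (log2 difference 1.78 ± 0.18, limma adjusted p = 0.00797). Vom1r53 had 28.5, 28.0 and 24.5 in AACO hearts, against 9.89, 5.63 and 6.83 in control hearts (1.41 ± 0.17, adjusted p = 0.00963). A surrogate near the noise replaced the signal in at least 0.5 of the spots on 3 arrays for Vom1r32 and on 2 for Vom1r53. Their SE and p-values thus rest in part on substituted values. Both were well above background on all 3 AACO arrays and on no control array, but their mean AACO levels did not exceed the control arrays' floor, so no bound of the fold is given. Over probes with a share of at least 0.5 of their spots well above background the floor was lower, and the bounds were 2.12-fold and 1.62-fold. With normexp background correction the limma difference was 0.02 (adjusted p = 0.955) for Vom1r32 and −0.21 (0.401) for Vom1r53, so both calls were lost. All signals of both probes lie below the offset of 50 that this setting adds. An offset shrinks differences of such dim probes, but for Vom1r53 the sign turned as well. The background correction also differs in this setting, and why the calls were lost was not tested. The probe of Vom1r54, whose listed position overlaps that of Vom1r53 and which shares 13 bases with it, differed by 0.39 ± 0.61 (adjusted p = 0.704).

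Vom1r37, on all 6 arrays, was the only tested Vom1r probe that fell. Its log2 levels were −0.27, −0.37 and −0.09 in AACO hearts, against 0.44, 0.52 and 0.34 in control hearts, with no overlap. The difference was −0.67 ± 0.11 (SE, limma adjusted p = 0.0209). Before scaling its signals overlapped, with 1403, 1677 and 2016 in AACO hearts and 2380, 1733 and 1700.2 in control hearts, and the unscaled difference was −0.19 (adjusted p = 0.559). The call was also lost without AACO replicate 1 (0.0763), AACO replicate 2 (0.0840), control replicate 2 (0.0542) or control replicate 3 (0.0529).

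The other Vom1r probes named for their signal did not pass. Vom1r55 had log2 levels of −1.21 ± 0.17 in AACO hearts, against −0.78 ± 0.42 in control hearts (SD, n = 3 each, limma adjusted p = 0.244), and Vom1r57 had −2.25 ± 0.14 in AACO hearts, against −2.39 ± 0.68 in control hearts (0.794). Vom1r77, Vom1r61, Vom1r73 and Vom1r40 had differences between −0.16 and 0.15, with adjusted p between 0.672 and 0.975. Their groups overlapped.

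Of the Vom2r receptors, 12 probes were tested, none rose and 3 fell, where 6.29% of all probes rose and 4.82% fell. Vom2r56 had log2 levels of −4.98, −5.24 and −4.83 in AACO hearts, against −4.19, −4.32 and −4.13 in control hearts (−0.80 ± 0.13, SE, limma adjusted p = 0.0203). Vom2r35 had −1.32, −1.55 and −1.05 in AACO hearts, against −0.32, −0.79 and −0.41 in control hearts (−0.80 ± 0.18, adjusted p = 0.0415). In both the groups did not overlap. Without scaling, neither passed, with differences of −0.32 each (0.328 for Vom2r56 and 0.352 for Vom2r35). Vom2r56 was no longer called without AACO replicate 1 (0.0707), AACO replicate 2 (0.0683) or control replicate 3 (0.0662). Its other probe, next to it on chromosome 7, was on 0 arrays and was not tested. That probe had mean log2 levels of −7.26 in AACO hearts and −7.31 in control hearts. Vom2r35 was not called without AACO replicate 1 (0.126), AACO replicate 2 (0.128), control replicate 1 (0.0858) or control replicate 3 (0.114), with normexp (0.0601) or with no filter on dim probes (0.0542). Vom2r12 fell short of the threshold (−0.93 ± 0.24, adjusted p = 0.0541), as did Vom2r18 (0.32 ± 0.20, 0.311).

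Both probes of Vom2r34 were on all 6 arrays, and their differences had opposite signs, of which only the fall passed. The dimmer probe had processed signals of 43.8, 46.1 and 66.1 in AACO hearts, against 110.0, 71.2 and 85.0 in control hearts, and fell (log2 difference −1.26 ± 0.15, SE, limma adjusted p = 0.00963). It passed in 15 of the 15 alternatives in which it was fitted. The brighter probe had 3648, 3612 and 3703 in AACO hearts, against 1767, 1632 and 1712 in control hearts, a scaled difference of 0.62 ± 0.16 that did not pass (adjusted p = 0.0579). It passed in 4 of 16 alternatives. Neither pair of groups overlapped. The 2 probes share no stretch of 20 bases or more, and the dimmer one lists 2 RefSeq transcripts.

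Probes of 1 gene disagreed elsewhere too. Of the 27 genes with over 1 probe, 14 had no probe above background on any array and 7 had at least 1 probe tested. In 5 of these 7 another probe of the gene was on 0 arrays. The 2 probes of V1rd15 share 51 bases, yet the brighter was on 4 arrays and the dimmer on 0. The brighter had log2 levels of −5.79, −6.24 and −5.77 in AACO hearts, against −7.99, −5.61 and −5.65 in control hearts, and the dimmer averaged −8.51 in AACO hearts and −7.91 in control hearts. A probe for ENSRNOT00000048720 shares 40 bases with that of Vom2r56 and did not pass (−0.22 ± 0.10, limma adjusted p = 0.199). On the 22 tested members with 2 spots per array, the spots differed by a median of 0.37 on the log2 scale and by up to 4.10.

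The filter divided members of similar levels. Of the 9 members on exactly 3 arrays, Tas2r120, Vom1r32 and Vom1r53 were on AACO arrays alone and the rest on arrays of both groups. Of the 6 members on 2 arrays, just outside the filter, Vom2r9 was on AACO arrays alone, with mean log2 levels of −6.08 in AACO hearts and −7.78 in control hearts. The other Vom2r9 probe, which shares 48 bases with it, was on 0 arrays, with −8.68 in AACO hearts and −7.60 in control hearts. The other 5 (Tas2r108, Vom1r28, Vom1r108, Vom2r24 and Vom2r72) were on 1 array of each group. A further probe of Vom2r72 was on 4 arrays and did not pass (−0.47, limma adjusted p = 0.0993).

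The undetected members were described apart from the test. The 164 members on 0 arrays had a median processed signal of 5.18, 5.44 and 5.31 on the AACO arrays, against 6.19, 5.12 and 6.70 on the control arrays. Before scaling their median log2 difference was −0.16, and after scaling it was −0.65. The 8081 undetected probes of all genes had −0.10 before and −0.59 after scaling, close to the receptors. When all probes were fitted without the filter, 5 members rose and 24 fell, and 20 of the 24 were among the 164 never above background. In that fit 12.2% of the 164 undetected receptor probes fell, near the 10.4% of all 8081 undetected probes. Over all probes, 2.86% then rose and 5.18% fell.

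Partners of the receptors were read from lists that hold transduction genes of each system. Of 13 taste transduction genes, 12 were on the array, 10 were tested and 1 fell, where 6.29% of all probes tested rose and 4.82% fell. The 1 was the G protein subunit Gnb1 (−0.37 ± 0.09, limma adjusted p = 0.0486). Gustducin, Gnat3, had log2 levels of −4.88, −4.56 and −4.28 in AACO hearts, against −4.19, −4.27 and −4.34 in control hearts, and Trpm5 −5.04, −5.05 and −5.14 against −5.86, −5.27 and −4.91. Neither passed (adjusted p = 0.257 and 0.480), and the release channel genes Calhm1 and Calhm3 were on 0 arrays. The median difference was 0.08 over the tested taste genes.

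Of the vomeronasal transduction and accessory genes, 13 were on the array, 9 were tested and 1 rose, where 6.29% of all probes tested rose and 4.82% fell. Trpc2, the channel of vomeronasal neurons, had log2 levels of −1.95, −2.07 and −2.23 in AACO hearts, against −2.66, −2.54 and −2.63 in control hearts. It rose by 0.53 ± 0.11 (limma adjusted p = 0.0345), with no overlap. Gnao1 (−0.13 ± 0.17, adjusted p = 0.648) and Gnai2 (0.03 ± 0.09, 0.837) did not pass, and the median over the 9 was −0.13. The receptor chaperone Rtp2, the olfactory marker protein Omp and both Fpr-rs genes on the array were on 0 arrays.

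Markers of cells that could carry these receptors were partly absent. Beside the counts that follow, 6.29% of all probes tested rose and 4.82% fell. Of 8 vomeronasal and olfactory neuron markers, Omp and the channel Cnga2 were on 0 arrays, while Trpc2 and the G protein Gnal (0.75 ± 0.17, limma adjusted p = 0.0418) rose among the 5 tested, whose median difference was 0.61. The summed linear level of the 8, relative to the 75th percentile, was 0.676 to 0.998 in AACO hearts and 0.486 to 0.536 in control hearts. Gng8 and Trpc2 were the brightest of the 8 on every array, and Gng8 did not pass (limma adjusted p = 0.118). Gap43 had −2.73, −3.67 and −5.54 in AACO hearts, against −5.96, −5.22 and −6.07 in control hearts, and did not pass (0.143). The sum therefore says little about the dimmer markers. Of 8 taste cell markers none was on 0 arrays, and the median difference of the 7 tested was 0.18. The ion channel Pkd2l1 had an adjusted p of 0.0369, with log2 levels of −5.71, −5.67 and −6.11 in AACO hearts, against −8.04, −6.76 and −7.24 in control hearts. It was well above background on no control array and entered the test only through the AACO arrays, so its direction was set by the filter, and no fold is given. The summed level of the 8 was 5.95 to 7.08 in AACO hearts and 6.88 to 7.21 in control hearts, but Car4 and Entpd2 made up 97.2% to 97.9% of it on every array. The other 6 had log2 levels between −8.29 and −3.64, so the sum says little about them. Of 7 tuft cell markers, the defining factor Pou2f3 and Gfi1b were on 0 arrays, and of the 5 tested Alox5ap (−1.38 ± 0.19, 0.0131) and Il25 (−0.95 ± 0.14, 0.0143) fell. Il25 was well above background on 1 AACO array and 2 control arrays only. The other 3 tested markers had differences above 0 that did not pass, 0.27 for Trpm5 (0.480), 0.36 for Avil (0.274) and 0.32 for Dclk1 (0.505). The median of the 5 was thus 0.27 while 2 fell. The summed levels of the 7 were 0.165, 0.169 and 0.138 in AACO hearts, against 0.185, 0.191 and 0.2504 in control hearts. Each sum weights its probes by their brightness. The part of any of these cells in the receptor values was not tested.

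Markers of nerve and Schwann cells, all 6 of them on all arrays, had summed levels of 5.27, 5.44 and 1.86 in AACO hearts, against 1.61, 2.24 and 1.32 in control hearts. In these sums AACO replicates 1 and 2 stood apart, as they did for Myl7. Of the 6, 1 rose (Sox10) and 1 fell (Tubb3), where 6.29% of all probes tested rose and 4.82% fell. All 8 receptor probes that differed had groups that did not overlap, so AACO replicate 3 lay beyond every control array as well. These 8 were picked on the same arrays, so its position there is not separate evidence. Whether atrial or nerve tissue had a part in the receptor values was not tested. Without AACO replicate 1, 2 members rose and 1 fell, where 1.02% of all probes rose and 1.21% fell. Without AACO replicate 2 the members' counts were the same, against 0.641% and 0.825% of all probes. Without control replicate 3, 3 rose and 1 fell (1.91% and 1.73% of all probes).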

How the data were processed

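RNA from 6 hearts was measured on single-colour Agilent arrays. Per the file headers, the deposited intensity is the processed, background-corrected signal of Agilent Feature Extraction 10.7.1.1 (version per the submitters' processing notes), not scaled between arrays. A deposited table of log2 values, the series matrix, covers the same arrays, its columns sharing a median of 6.77 and following the scanner intensities on the log2 scale (r of 0.998 or more). Its direction was taken from these, and its exact normalization stayed unknown. Spots marked as outliers were dropped, and a probe's spots were averaged on the log2 scale after subtracting log2 of the array's 75th percentile. A probe counted as well above background where at least 0.5 of its spots were. Probes so on at least 3 arrays were fitted by limma 3.58.1 in R 4.3.3, with lmFit, eBayes and a two-sided test adjusted by Benjamini-Hochberg over all probes tested. The fit was tested on simulated data.

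Groups follow the treatment label. The series text speaks of different donors, but not at the level of single samples, so the p-values reflect only how these 6 samples spread, which may be technical. Per the labels, the dose unit is µg/g, which the files cannot check. The accessions of 171 members matched the RefSeq symbol table, 3 with another symbol, and the array's names were kept. Named were probes that passed, Tas1r and Tas2r probes on at least 1 array, the 10 brightest vomeronasal probes, and the 5 tested vomeronasal probes of smallest p in each direction, and further probes are said to be added. Members, lists and this rule were chosen with earlier results of these data known. Alternatives changed the filter, background correction, scaling, values, probe per gene, variance prior and arrays, 1 at a time. Of the 230 members, 27 list over 1 RefSeq transcript, 8 of them tested, so near-identical receptors may share a probe.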

Additional observations from a re-analysis of the deposited data

How the results depend on the processing

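Over the 20 named probes that were tested, 256 of the values under alternatives kept direction and call, 23 lost the call, 12 gained it and 20 turned direction. With normexp correction 820 probes rose and 1737 fell, 2 and 8 of them receptors. Without scaling 6341 rose and 267 fell, with 8 receptors up and 3 down, and the median of all probes moved to 0.52. With no filter 1571 probes and 24 receptors fell. With only probes on all 6 arrays, 2 receptors rose and 5 fell, among 1279 probes up and 1091 down. Leaving out 1 array at a time gave 129 to 1407 probes up and 166 to 1062 down, and 2 to 4 receptors up and 1 to 5 down. The receptors above background per array, AACO minus control, numbered 8.33 more, 4.67 to 12.2 without 1 array and 8.67 by the positive and significant mark. Direction turned without scaling for Tas1r1 (0.29), Vom1r40 (0.32), Vom1r55 (0.056) and Vom1r61 (0.41). With normexp it turned for Vom1r53 (−0.21), Vom1r57 (−0.036), Vom1r73 (−0.16), Vom1r77 (−0.11) and Vom2r18 (−0.32). Vom1r77 also turned with quantile normalization (−0.0252), with the 75th percentile over detected probes (−0.0049) and with the series matrix (−0.0252). Leaving out 1 array at a time gave −0.104 to 0.197 for Vom1r77, −0.0682 to 0.540 for Vom1r57, −0.238 to 0.0138 for Vom1r61 and −0.476 to 0.0641 for Vom1r40. Of these, Vom1r53 alone had been called, and the cause was not tested. Fits without an array rest on fewer samples. The floor for the bounds of Tas2r120, Vom1r32 and Vom1r53 was chosen after seeing the data, and both versions are given with them. No paired analysis was possible because the numbers in the sample titles are not shared between the groups.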

Other observations

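Olfactory receptors, which were not members, offer values for a family detected about as rarely. Of 141 Olr probes tested, 1 rose and 20 fell with AACO (limma, adjusted over all probes), 14.9% of them in either direction, where 6.29% of all probes rose and 4.82% fell, 11.1% in either direction. The median log2 difference was −0.28 over the Olr probes and 0.04 over all probes. Per array, 128, 167 and 177 Olr probes were well above background in AACO hearts, against 157, 152 and 120 in control hearts (exact permutation p = 0.5, two-sided). Tas2r110 had its only signal well above background in 1 control heart, replicate 1, at 53.5, while the other 5 arrays lay between 4.60 and 7.01.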
